A study of Mus musculus with 2 samples.

Results

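The genes described here handle lipid in macrophages or mark foam cells, which are macrophages filled with lipid. They are *Apoe*, *Abca1*, *Abcg1*, *Lpl*, *Cd36*, *Fabp4*, *Fabp5*, *Trem2*, *Gpnmb* and *Plin2*. These 10 members were taken by gene symbol from the 55386 features counted in both libraries, and each symbol names 1 feature. Their levels are given for cell classes set by marker genes, and none of the members is a marker of a class.

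The study asks where arterial macrophages come from and what they do at rest and in inflammation. Leukocytes carrying CD45 were sorted from the aortic adventitia, the outer layer of the vessel, of *Rank*-Cre *Rosa26*-eYFP mice, in which cells that once made Cre keep a yellow fluorescent reporter (*Yfp*). The animals were 16 weeks old and were either untreated (steady state, 3 animals pooled) or given angiotensin II at 1.8 µg/kg/min for 10 days (AngII, 2 animals pooled). Each condition is 1 droplet library, in which a transcript molecule is counted by its unique molecular identifier (UMI). The steady-state library has 346 cell barcodes and 4009678 UMIs, and the AngII library has 4419 barcodes and 20481854 UMIs. After the cell filter, 306 and 4198 cells stayed, with a median of 9105 and 1092 UMIs per cell.

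Apolipoprotein E (*Apoe*) and the transporters *Abca1* and *Abcg1* carry cholesterol out of cells. Lipoprotein lipase (*Lpl*) frees fatty acids from lipoproteins, the receptor *Cd36* takes up fatty acids and oxidized lipoproteins, and *Fabp4* and *Fabp5* bind fatty acids inside the cell. *Trem2* is a receptor for lipids, *Gpnmb* a glycoprotein of lysosomes and lipid-loaded macrophages, and *Plin2* coats lipid droplets.

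Levels are counts per 1e6 (CPM), the summed UMIs of a gene scaled by all UMIs of a class, with 95% Poisson intervals. A member was compared where it had at least 50 UMIs over both groups, and a ratio of at least 2 or at most 0.5 is called past 2-fold. Where the groups differ in total UMIs, a gene seen in the larger group alone reaches 50 UMIs at a lower CPM. A group without a UMI gives a bound set at 3 UMIs in place of a ratio. The macrophages numbered 137 at steady state and 2347 on AngII. Of these, 123 and 1138 were resident by their markers, 10 and 165 were type-2, and 235 on AngII were reparative, a class with no cell at steady state. Median depths of all macrophages were 10333 and 1121 UMIs.

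How many cells show a member such as *Cd36* depends on this depth. Shares of cells are therefore also given with each cell thinned at random to 1000 UMIs, which leaves out 2 macrophages at steady state and 1025 on AngII. T, B and NK cells are given beside each member as the nearest measure of free RNA, and a lymphocyte's own RNA of a member cannot be told apart from free RNA. These lymphocytes numbered 90 and 354, with median depths of 6594 and 1393 UMIs, and thinning left out 1 and 138 of them. The setting without cells holding UMIs of other lineages leaves 25 and 812 macrophages, at median depths of 6987 and 747.5 UMIs, and 11 and 102 lymphocytes.

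Between the libraries, 6 of the 10 members were past 2-fold in macrophages, against 14% of the 9922 genes compared. *Abcg1*, *Fabp4*, *Fabp5*, *Trem2* and *Gpnmb* were higher on AngII (7.29% of genes), and *Cd36* was lower (6.76%). *Apoe*, *Abca1*, *Lpl* and *Plin2* stayed within 2-fold. The median log2 ratio of the members was 0.99, while that of all genes compared was −0.01. With 1 library per condition, a difference of condition cannot be told apart from a difference of library, pool or depth.

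**Figure D1:**
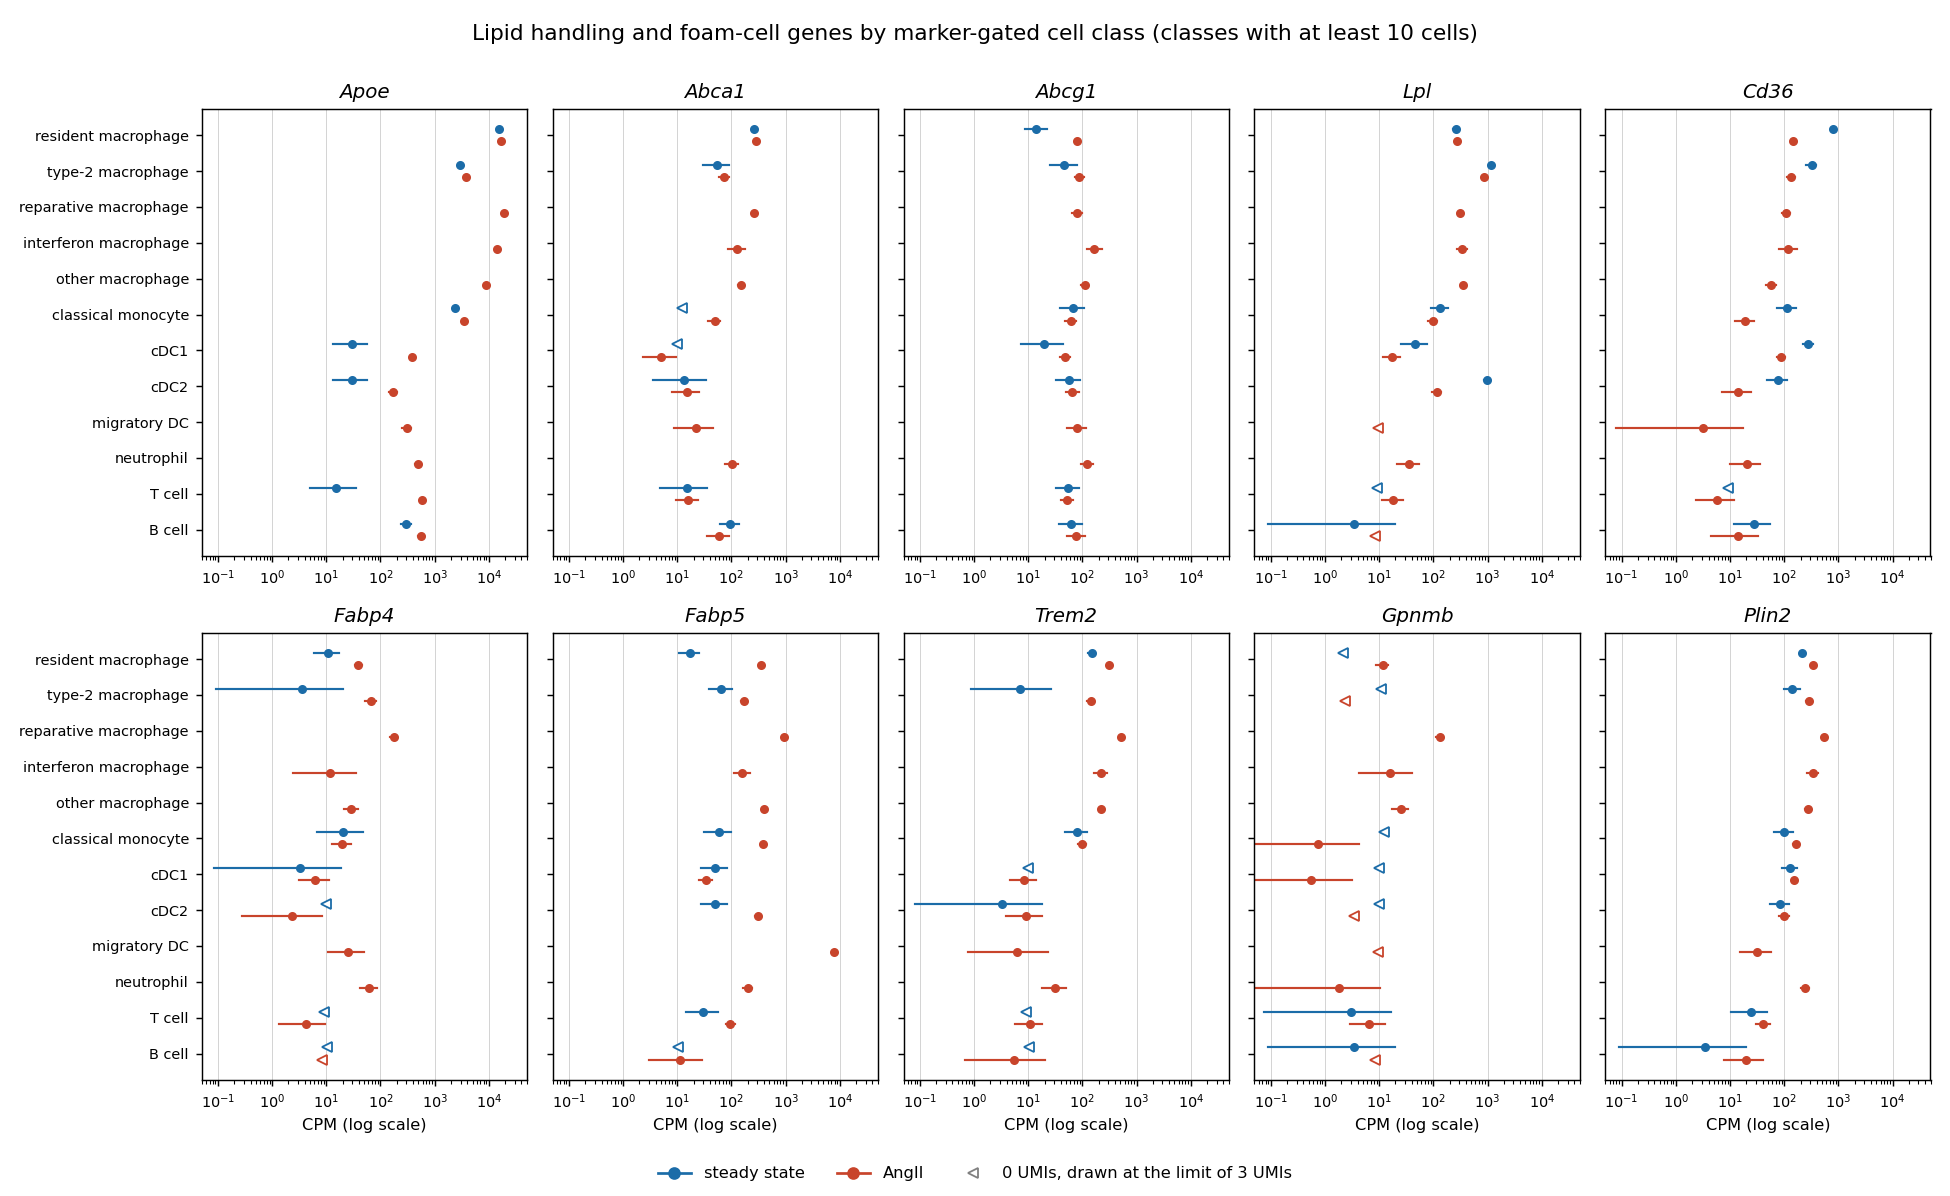
CPM of each member by marker-gated cell class in both libraries, with 95% Poisson intervals, for classes with at least 10 cells. An open triangle marks a class without a UMI, drawn at the limit of 3 UMIs.

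*Apoe* stood at 13237 CPM (13068 to 13407) in steady-state macrophages and 14144 CPM (14069 to 14219) on AngII. The ratio was 1.07, so its level per UMI was nearly the same in the 2 libraries. A UMI of *Apoe* was found in 97.8% and 94.2% of macrophages, and in 91.9% and 92.5% after thinning. *Apoe* was thus found in nearly every macrophage, beside 27.8% and 66.95% of lymphocytes at full depth.

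By class at steady state, *Apoe* ran from resident macrophages (15660 CPM) to type-2 macrophages (2942), classical monocytes (2368) and B cells (302). On AngII it ran from reparative (18869) and resident (16901) to interferon-marked (13896), other (8860) and type-2 macrophages (3716). Each of these neighbours differed beyond counting error. Classical monocytes followed at 3531 CPM, so *Apoe* separates resident and reparative macrophages from monocytes and type-2 macrophages at both conditions where the class exists.

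Among the members, *Apoe* had the highest level in lymphocytes. It stood at 150 CPM at steady state and 552 CPM on AngII, and thinned cells held a UMI in 7.87% and 41.2%. In T cells it was 15.1 and 572 CPM, a ratio of 37.9 (16.2 to 117), and in B cells 302 and 561 CPM, so the lymphocyte classes of the steady-state library were not alike. *Apoe* of AngII cells other than macrophages thus cannot be told apart from free RNA where it is no higher than in lymphocytes, as in dendritic cells. It stood at 29.6 and 375 CPM in cDC1, and at 29.5 and 168 CPM in cDC2.

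*Abca1* was also near even between the libraries in the main setting, and its ratio ran from 0.5535 to 1.18 over the settings. Macrophages held 226 CPM (204 to 249) at steady state and 231.5 CPM (222 to 241) on AngII, a ratio of 1.03 (0.92 to 1.14). Thinned shares were 23.0% and 19.8% in macrophages and 3.37% and 4.17% in lymphocytes, while full-depth shares were 75.9% and 30.2% in macrophages. At 500 UMIs, which leaves out no macrophage, the *Abca1* shares were 18.25% and 10.3%. The gap of the full-depth shares was thus small at 1000 UMIs and present at 500.

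Resident macrophages held the most *Abca1* of the classes compared, at 264.5 CPM at steady state and 287 CPM on AngII. Reparative macrophages, at 265 CPM, did not differ from them beyond counting error, and type-2 macrophages held 53.8 and 74.1 CPM. In classical monocytes, *Abca1* had no UMI at steady state, with a limit of 12.4 CPM, and stood at 48.75 CPM on AngII. This is at least 3.92-fold, while lymphocytes held 51.0 and 25.6 CPM.

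*Abcg1* departed from the other export genes. It stood at 19.7 CPM (13.7 to 27.4) in steady-state macrophages and 88.1 CPM (82.3 to 94.2) on AngII. The ratio was 4.47 (3.19 to 6.47) in all macrophages and 5.67 (3.63 to 9.37) in resident ones, where the levels were 14.1 and 79.98 CPM. Shares of thinned macrophages with an *Abcg1* UMI were 1.48% and 9.15%, and full-depth shares were 13.9% and 18.4%.

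Lymphocytes held *Abcg1* too. They stood at 57.4 and 57.3 CPM, above the steady-state and below the AngII macrophages, and 10.1% and 7.87% of thinned lymphocytes had a UMI. In neither library did any class differ in *Abcg1* from the next class in order. Thinning to 500 UMIs brought the *Abcg1* ratio of the libraries within 2-fold (1.89), and thinning to 2000 raised it to 11.6. Both ratios rest on few steady-state macrophages, with an *Abcg1* UMI in 2.19% of 137 and 1.53% of 131. *Abcg1* is thus higher in AngII macrophages per UMI at full depth, by an amount that varied over the settings. The part of depth in this was not tested.

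*Lpl* stood at 433.5 CPM (403.5 to 465) in macrophages at steady state and 368 CPM (356.5 to 381) on AngII, a ratio of 0.850 (0.786 to 0.920). Thinned shares ran the other way, from 8.89% at steady state to 20.4% on AngII, with 0% and 2.31% of lymphocytes. Full-depth shares of macrophages were 37.2% and 27.7%, the direction of the CPM. Few steady-state cells carried most of its UMIs. Of 366 *Lpl* UMIs in resident macrophages, 189 (51.6%) lay in 1 cell.

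The *Lpl* ratio of macrophages depended on the setting. It was 1.07 without the cell with most UMIs, 1.80 after thinning to 1000 UMIs and 9.68 without cells holding UMIs of other lineages, over 6 steady-state UMIs. In resident macrophages, the *Lpl* ratio of 1.06 became 2.06 without the cell with most UMIs. The direction of *Lpl* between the libraries is therefore not settled by these counts.

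Within each library, *Lpl* marked type-2 macrophages among the macrophages. At steady state they held 1170 CPM (1046 to 1304) against 258 CPM in resident ones, a ratio of 4.53. On AngII, the levels were 853 CPM (803 to 906) and 274 CPM, a ratio of 3.12. Other, interferon-marked and reparative macrophages of the AngII library followed type-2 at 354, 346 and 317 CPM and did not differ from each other beyond counting error. After thinning, 50.0% and 43.8% of type-2 macrophages had an *Lpl* UMI, so the class keeps it at equal depth.

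In cDC2, *Lpl* stood at 980.5 CPM at steady state and 115 CPM on AngII, a ratio of 0.117. A single cell held 206 of the 299 steady-state UMIs, and without it the ratio was 0.293.

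*Cd36* was the member past 2-fold downward on AngII. It stood at 714 CPM (675 to 754) in steady-state macrophages and 125 CPM (118 to 132) on AngII, a ratio of 0.175 (0.162 to 0.190). Thinned shares were 50.4% (68 of 135 cells) and 10.4% (137 of 1322), and 0% and 0.463% in lymphocytes. At full depth, the shares were 91.2% and 17.6%. Both the level per cell class and the share of cells with *Cd36* thus fell, and the ratio stayed between 0.140 and 0.181 in every setting run for all macrophages.

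The fall of *Cd36* was found in each macrophage group compared. Resident macrophages went from 786 to 146 CPM (0.185, 0.169 to 0.203), and type-2 macrophages from 319 to 133 CPM (0.417). Resident *Yfp*+ cells went from 767.5 to 192 CPM (0.251) and *Yfp*− cells from 913 to 101 CPM (0.111). Without cells holding UMIs of other lineages, the *Yfp*− ratio of *Cd36* was 1.04, resting on 5 UMIs in the 8 steady-state cells left.

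Outside macrophages, *Cd36* stood at 112 and 18.75 CPM in classical monocytes, and at 276 and 88.1 CPM in cDC1 (0.319). Without cells holding UMIs of other lineages the cDC1 ratio was 0.504, with 4 steady-state cells left. In ratio, resident and type-2 macrophages lay closer together on AngII, while resident macrophages and classical monocytes did not. These differences were not tested. At steady state, resident macrophages exceeded type-2 macrophages, which did not differ from cDC1. On AngII, mast cells and resident, type-2, interferon-marked and reparative macrophages had *Cd36* levels that did not differ between neighbours beyond counting error.

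**Figure D2:**
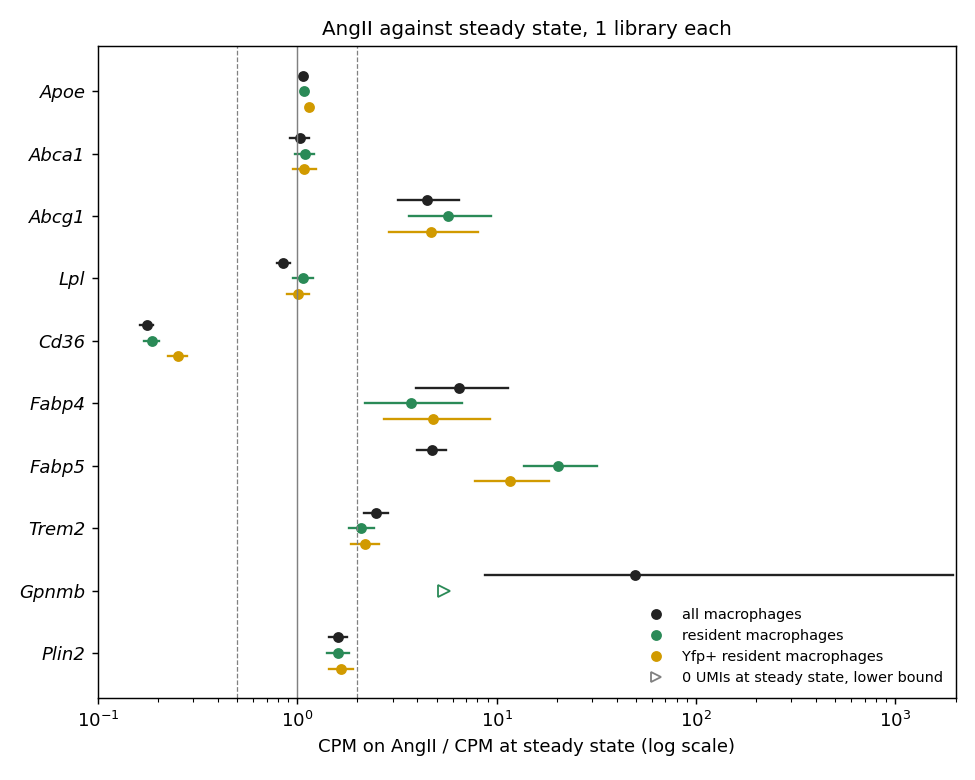
CPM on AngII over CPM at steady state for each member in all, resident and *Yfp*+ resident macrophages, with 95% intervals. Dashed lines mark ratios of 0.5 and 2, and an open triangle is a lower bound.

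*Fabp4* was rare at steady state and remained so on AngII. Macrophages held 9.01 CPM (16 UMIs) and 58.0 CPM (563 UMIs), a ratio of 6.44 (3.93 to 11.3). Thinned shares were 0.741% and 3.56%, with 0% and 0.463% of lymphocytes, and full-depth shares were 5.11% and 6.43%. *Fabp4* is thus a gene of few macrophages, and 1 AngII cell held 142 of its UMIs.

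Reparative macrophages led the AngII classes for *Fabp4*, at 174.5 CPM, with 64.2% of their UMIs in that cell. They were 2.39 times the next class, mast cells, with an interval that holds 1 (0.654 to 19.9). Resident macrophages went from 10.6 to 39.1 CPM (3.69), and 97 of the 213 AngII UMIs lay in 1 cell. Type-2 macrophages went from 3.59 CPM (1 UMI) to 66.1 CPM, a ratio of 18.4 (3.22 to 737). At steady state, the 9 nonclassical monocytes held 308 CPM of *Fabp4*, with 22 UMIs in 7 cells, above the macrophage classes with at least 10 cells.

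*Fabp5* rose in more classes than any other member. It stood at 85.6 CPM (72.5 to 100.3) in steady-state macrophages and 403 CPM (390.1 to 415) on AngII, a ratio of 4.71. The steady-state level rests on 1 cell with 110 of 152 UMIs, and without the cell with most UMIs the ratio was 15.6. Thinned shares were 3.70% and 21.9% in macrophages, against 2.25% and 7.87% in lymphocytes, and full-depth shares were 10.9% and 33.2%.

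Resident macrophages were free of that cell and held 16.9 CPM (24 UMIs) and 345 CPM (1879 UMIs) of *Fabp5*. The ratio of 20.4 (13.6 to 31.9) was the largest of any member with a UMI in resident macrophages of both libraries. Over the settings run, this *Fabp5* ratio was lowest after thinning to 1000 UMIs (9.46). Reparative macrophages held 933 CPM on AngII. In classical monocytes *Fabp5* went from 58.05 to 385.5 CPM (6.64), and in cDC2 from 49.2 to 312 CPM (6.34). In the main setting *Fabp5* was thus higher on AngII in macrophages, monocytes and cDC2, while cDC1 had 49.4 and 33.7 CPM. Monocytes and cDC2 had too few *Fabp5* UMIs to be compared after thinning to 1000, and the AngII monocyte gate also holds genes of plasma cells.

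Migratory dendritic cells of the AngII library held 7878 CPM (7572 to 8193) of *Fabp5*, the highest of its classes. A UMI was found in 32 of 36 cells (88.9%), and in 72.0% after thinning. This was 25.3 times the cDC2 of that library, and 1.71 times without cells holding UMIs of other lineages, with 13 and 16 cells left. Lymphocytes held 15.9 and 76.25 CPM of *Fabp5*. In T cells the levels were 30.2 and 95.85 CPM, a ratio of 3.18, a difference that cannot be told apart from free RNA.

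*Trem2* stood at 121 CPM (105 to 138) in steady-state macrophages and 300 CPM (289 to 311) on AngII, a ratio of 2.48 (upper end 2.86). Thinned shares were 10.4% and 22.5% in macrophages and 0% and 0.926% in lymphocytes, and full-depth shares were 57.7% and 33.7%. The sign of the share difference thus turns with depth for *Trem2*. Its ratio fell within 2-fold after thinning to 500 (1.73) or 2000 UMIs (1.785) and for the mean CPM of cells, and stayed past it after thinning to 1000.

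By class at steady state, *Trem2* ran from resident macrophages (149 CPM) to classical monocytes (78.8) and type-2 macrophages (7.18, 2 UMIs). On AngII, reparative macrophages led at 515 CPM, ahead of resident ones at 310.0 CPM. Type-2 macrophages held 144 CPM and classical monocytes 97.5 CPM. *Trem2* was thus highest in resident macrophages at steady state and in the reparative class, which exists on AngII alone.

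In resident macrophages, the *Trem2* ratio of AngII to steady state was 2.08, with an interval from 1.80. Thinning to 500 UMIs gave 1.49. In type-2 macrophages the ratio was 20.1 (5.48 to 167), resting on 2 *Trem2* UMIs at steady state.

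*Gpnmb* was nearly absent at steady state. The 137 macrophages held 1 UMI (0.563 CPM), and lymphocytes held 2 (3.19 CPM). On AngII, *Gpnmb* had 269 UMIs in 65 of 2347 macrophages (2.77%), at 27.7 CPM. The ratio was 49.2 (upper end 1950), and without the cell with most UMIs it was a bound of at least 13.1. Thinned shares were 0% of 135 and 1.51% of 1322 macrophages, with 1.12% and 1.39% of lymphocytes.

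Reparative macrophages held most of the *Gpnmb* UMIs of the AngII macrophages, 165 of 269, at 130.3 CPM (111 to 152) and in 28 of 235 cells. A single reparative cell held 49 *Gpnmb* UMIs, and 10 cells held 53.4% of those of all AngII cells. The interval does not cover this spread between cells. Resident macrophages held 11.6 CPM, at least 5.46-fold above the steady-state cells, which had none. With the lymphocyte CPM taken off this was 3.155, and a *Gpnmb* UMI was found in 0.5405% of thinned resident cells against 1.39% of lymphocytes. The part of free RNA in the resident level was not tested. Type-2 macrophages had no UMI in either library. The level of *Gpnmb* was thus highest in the reparative class among the AngII classes with at least 10 cells.

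The 65 AngII macrophages with a *Gpnmb* UMI were set against the 2282 without. The median depths were 7989 and 1096 UMIs, so the groups also differ in depth. *Fabp5* stood at 2356 and 260.5 CPM, *Apoe* at 29017 and 13062 CPM, and *Plin2* at 729 and 323 CPM. *Trem2* stood at 546.5 and 282 CPM, while *Cd36* (143 and 124 CPM) and *Fabp4* (53.1 and 58.3 CPM) were nearly equal. Cells with *Gpnmb* thus hold more *Apoe*, *Fabp5*, *Plin2* and *Trem2* per UMI. Reparative macrophages, which held most of the *Gpnmb* UMIs, also led the AngII macrophage classes in these members. The part of class and depth in this pairing was not tested. For *Cd36* and *Fabp4* the answer depends on the split, since *Gpnmb* stood at 47.8 CPM in macrophages with *Cd36* against 15.3 without, and at 96.3 CPM with *Fabp4* against 17.3 without.

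A different pairing was found for *Lpl*. In the 651 AngII macrophages with an *Lpl* UMI, *Cd36* stood at 175 CPM against 72.0 CPM in the 1696 without, at median depths of 2190 and 985 UMIs. At steady state, *Cd36* ran the other way, at 655.5 CPM in the 51 macrophages with *Lpl* and 776 CPM in the 86 without (14612 and 8944 UMIs). *Apoe* was lower in the cells with *Lpl* in both libraries, at 7914 against 18859 CPM at steady state and 10447 against 18051 CPM on AngII. Type-2 macrophages held more *Lpl* and less *Apoe* than resident ones in both libraries, and the part of class in these pairings was not tested.

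*Plin2* stood at 220.1 CPM (199 to 243) in steady-state macrophages and 351 CPM (339 to 363) on AngII, a ratio of 1.59 (upper end 1.77). Thinned shares were 13.3% and 26.25% in macrophages, and 0% and 4.63% in lymphocytes. Full-depth shares were 78.1% and 39.2%. *Plin2* stayed within 2-fold in the main setting and passed it after thinning to 1000 UMIs and without cells holding UMIs of other lineages (2.02 in each).

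Reparative macrophages held the most *Plin2* on AngII (543 CPM), and resident, interferon-marked, type-2 and other macrophages and neutrophils followed without a difference between neighbours. Resident macrophages went from 216 to 344 CPM, and type-2 macrophages from 139.9 to 284 CPM. Classical monocytes held 99.5 and 166 CPM of *Plin2*. It is thus a broad myeloid transcript in these libraries, with lymphocytes at 14.35 and 34.8 CPM.

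**Figure D3:**
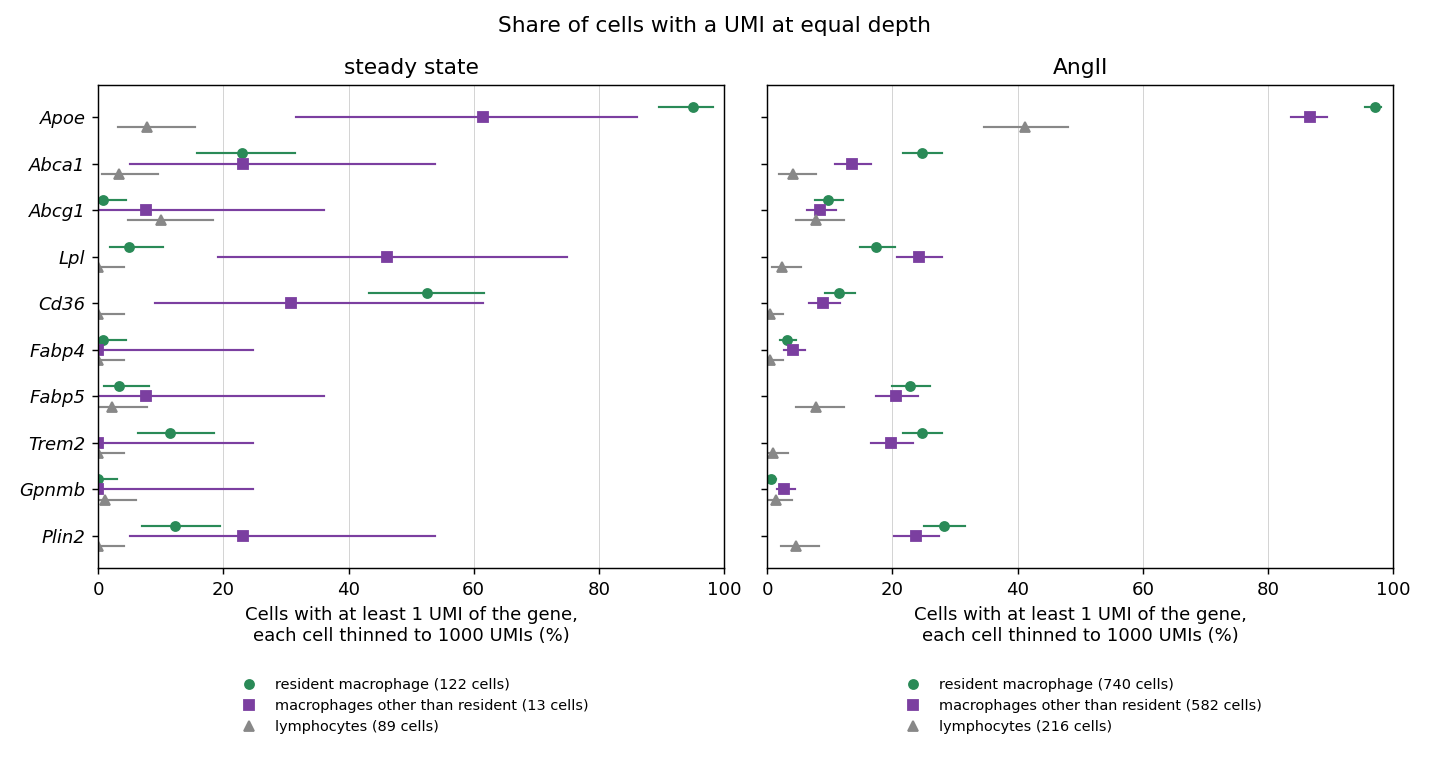
Share of cells with at least 1 UMI of each member after thinning every cell to 1000 UMIs, in resident macrophages, other macrophages and lymphocytes, with exact 95% intervals.

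To ask which members mark macrophages, macrophages were compared with the lymphocytes of the same library. At steady state, 7 of 8 members compared were higher (25.5% of genes) and *Abcg1* was lower, at 0.343 (12.4% of genes), against 37.9% of genes past 2-fold in either direction. The ratios were 88.3 for *Apoe*, 56.0 for *Cd36*, 15.3 for *Plin2*, 5.37 for *Fabp5* and 4.43 for *Abca1*. *Trem2* was at least 25.3-fold higher, and *Lpl* had a ratio of 272 (48.7 to 10755) over 1 lymphocyte UMI.

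On AngII, 9 of 10 members were higher in macrophages than in lymphocytes (20.9% of genes) and none lower (17.7%), with 38.7% of genes past 2-fold. *Trem2* had the largest ratio (32.8), followed by *Lpl* (27.45), *Apoe* (25.6), *Fabp4* (19.01), *Cd36* (17.1) and *Plin2* (10.1). *Abcg1*, at 1.54, was within 2-fold, and at 2.52 without cells holding UMIs of other lineages. The ratios were smaller for the mean CPM of cells, with *Apoe* at 7.59 and *Lpl* at 5.85. *Gpnmb* had a ratio of 5.68, which was 0.765 for the mean CPM of cells. *Apoe*, *Lpl*, *Cd36*, *Trem2* and *Plin2* thus separate macrophages from lymphocytes at least 10-fold in both libraries in the main setting. That size was not kept on AngII for the mean CPM of cells. After thinning to 500 UMIs it was lost there for *Apoe* (7.86), *Lpl* (6.435), *Cd36* (8.245) and *Trem2* (7.441). Without cells holding UMIs of other lineages it was lost for *Lpl* (7.98), *Cd36* (9.994) and *Plin2* (5.238). Other myeloid classes were not part of this comparison. *Fabp5* fell within 2-fold at steady state without the cell with most UMIs (1.52).

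Resident and other macrophages of 1 library share its preparation. At steady state, 5 of 7 members were past 2-fold between the 123 resident and 14 other macrophages (16.7% of genes). *Apoe*, *Abca1* and *Trem2* were higher in resident cells (13.3% of genes), with ratios of 4.29, 3.65 and 13.3. *Lpl* (0.229) and *Fabp5* (0.0474) were lower (3.42% of genes), and 110 of the 128 *Fabp5* UMIs of the other macrophages lay in 1 cell. The *Abca1* ratio was 0.329 without cells holding UMIs of other lineages, a setting that leaves 1 other macrophage with 1 *Abca1* UMI. *Cd36* (1.83) and *Plin2* (0.910) were within 2-fold, and *Cd36* passed it after thinning to 1000 UMIs (3.28).

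On AngII, 2 of 10 members were past 2-fold between resident and other macrophages, against 4.23% of genes. *Fabp4* (0.476) and *Gpnmb* (0.239) were lower in resident cells (1.64% of genes), and no member was higher (2.59%). Without cells holding UMIs of other lineages, neither call was kept, and *Abca1* (2.79) and *Cd36* (2.395) were higher in resident cells instead. The *Fabp4* difference also ended without the cell with most UMIs (0.7955), for the mean CPM of cells (0.654) and after thinning to 1000 UMIs (0.568). The other macrophages are not the same mixture in the libraries, with 10 type-2 cells among 14 at steady state and 776 cells of no named subset on AngII. The counts of members of the libraries were therefore not compared.

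Reparative macrophages, seen on AngII alone, had 3 of 10 members past 2-fold against the resident class (6.7% of genes), all of them higher (2.03%) and none lower (4.67%). *Gpnmb* was 11.3 times (8.39 to 15.3), *Fabp4* 4.47 times and *Fabp5* 2.71 times the resident level. Without the cell with most UMIs *Fabp4* was at 1.63. The count of 3 became 1 after thinning to 1000 or 2000 UMIs and for the mean CPM of cells, and 0 after thinning to 500. Without cells holding UMIs of other lineages, 1 of the 3 members kept its direction past 2-fold. *Trem2* (1.66) and *Plin2* (1.58) were higher within 2-fold. *Spp1* is a marker in the gate of this class, so its level there is set by the gate, while the members are free of it.

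Type-2 macrophages differed from resident ones in 5 of 6 members compared at steady state (18.5% of genes) and 6 of 10 on AngII (10.2%). *Lpl* was the member higher in both libraries (3.63% and 1.96% of genes). Lower members numbered 4 at steady state (14.9% of genes) and 5 on AngII (8.26%). *Apoe* (0.188 and 0.2198), *Abca1* (0.2035 and 0.258) and *Trem2* (0.0482 and 0.465) were lower in both. *Cd36* was also lower at steady state (0.406), and *Fabp5* (0.495) and *Gpnmb* (no UMI in type-2 cells) on AngII. *Fabp5* and *Gpnmb* had too few UMIs to be compared at steady state, where *Fabp5* stood at 64.6 CPM in type-2 and 16.9 CPM in resident cells. Type-2 macrophages thus combine high *Lpl* with low *Apoe*, *Abca1* and *Trem2* at each condition in the main setting. The 5 calls at steady state, from 10 type-2 cells, became 2 after thinning to 1000 or 500 UMIs, and the 6 on AngII became 4 with a gate share of 80%. The AngII *Trem2* difference ended after thinning to 500 UMIs (0.750), and the steady-state one with a gate share of 80% (0.860).

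Classical monocytes of the AngII library were lower than resident macrophages in 8 of 10 members (11.1% of genes) and higher in none (3.85%), with 14.9% of genes past 2-fold. The count of 8 became 3 after thinning to 500 UMIs, and 5 after thinning to 2000, for the mean CPM of cells and without cells holding UMIs of other lineages. *Gpnmb* (0.0649), *Cd36* (0.129), *Abca1* (0.1699) and *Apoe* (0.209) were the lowest in ratio, and *Fabp4* (0.499) and *Plin2* (0.482) lay next to the limit. *Abcg1* and *Fabp5* were within 2-fold of the resident level. The class is not monocytes alone, since its leading genes include *Ighg2c*, *Jchain*, *Igkc* and *Siglech*, genes of plasma cells and plasmacytoid dendritic cells. Those of cDC2 at steady state are partly cell-cycle genes (*H1f5*, *Pclaf*, *Top2a*) and include *Tnip3*, a marker of the type-2 gate. Those of AngII type-2 macrophages include *Clec4b1*, a marker of the cDC2 gate. The part of such overlap in the *Lpl* levels of the 2 classes was not tested.

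Resident macrophages were divided by detection of at least 1 *Yfp* UMI. *Yfp* stood at 271.7 CPM in the *Yfp*+ cells on AngII, so a labelled cell of low depth can lack a UMI. The *Yfp*− cells can therefore hold labelled cells and are not 1 lineage. *Yfp*+ cells were 94 of 123 (76.4%) at steady state and 245 of 1138 (21.5%) on AngII. Their median depths were 10975 and 7406 UMIs, against 5215 and 1201 in *Yfp*− cells, and the part of depth in this call was not tested. At steady state, 1 of 6 members was past 2-fold (8.77% of genes). *Lpl* was higher in *Yfp*+ cells, at 2.15 (6.84% of genes), and no member was lower (1.93%). It was 0.986 without the cell with most UMIs and 0.760 with a gate share of 80%, so the members do not clearly separate *Yfp*+ from *Yfp*− resident cells there.

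On AngII, *Fabp5* (0.490) and *Gpnmb* (0.245) were lower in *Yfp*+ resident cells, 2 of 10 members against 1.61% of genes in either direction (0.769% lower, 0.842% higher). Neither difference held in every setting. *Gpnmb* was at 0.844 for the mean CPM of cells. *Fabp5* was at 0.678 after thinning to 1000 UMIs, at 0.540 without the cell filter and at 0.5875 without the cell with most UMIs, and it turned to 1.46 without cells holding UMIs of other lineages. *Cd36* (1.90) and *Fabp4* (1.77) were higher in *Yfp*+ cells within 2-fold, and *Fabp4* turned to 0.4955 without the cell with most UMIs.

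Between the libraries, 6 of 10 members were past 2-fold in resident macrophages (12.1% of genes), 5 of them higher on AngII (6.5%) and *Cd36* lower (5.61%). In their *Yfp*+ cells, 5 of 9 members were past 2-fold (9.9% of genes), 4 higher (5.06%) and *Cd36* lower (4.84%). In *Yfp*− cells, 6 of 10 were (24.3%), 5 higher (15.5%) and *Cd36* lower (8.74%). *Yfp*− cells held 178544 UMIs at steady state and 2782599 on AngII, so the minimum of UMIs admits genes seen on AngII alone at lower CPM. After thinning to 500 UMIs, 2 of the 6 resident calls were kept, and 3 after thinning to 2000 or without cells holding UMIs of other lineages. Of the 5 *Yfp*+ calls, 2 were kept after thinning to 500 or 2000. Of the 6 *Yfp*− calls, 3 were kept after thinning to 500 or 2000 and 2 without cells holding UMIs of other lineages. In *Yfp*+ cells *Abcg1* (4.67), *Fabp4* (4.79), *Fabp5* (11.6) and *Trem2* (2.18) were the higher members. Of the 134 AngII UMIs of *Fabp4* in *Yfp*+ cells, 97 lay in 1 cell, and too few were left without it for a comparison. The *Fabp4* ratio of *Yfp*− cells (2.53, 0.679 to 21.3) rests on 2 steady-state UMIs and its interval holds 1. *Fabp5* had no UMI in *Yfp*− cells at steady state and 459 CPM on AngII, at least 27.3-fold. *Abcg1*, *Fabp5* and *Trem2* were thus past 2-fold upward and *Cd36* downward in both groups in the main setting. In *Yfp*− cells, *Abcg1* (8.18) was not past 2-fold after thinning to 1000 UMIs. There, *Trem2* (2.54) was within 2-fold after thinning to 500 UMIs (1.56) and without cells holding UMIs of other lineages (1.98). *Lpl* was past 2-fold in *Yfp*− cells (2.10) and not in *Yfp*+ cells. This call ended with a gate share of 80% (1.83), with at least 1000 genes (1.91) and relative to the median ratio (1.96). It also ended after thinning to 2000 UMIs (1.45), while the *Yfp*− ratio was 5.33 without the cell with most UMIs. The *Yfp*+ ratio of *Lpl* was 2.37 with a gate share of 80%. The *Trem2* ratio of *Yfp*+ cells fell within 2-fold for the mean CPM of cells (1.88).

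Other classes had fewer members with enough UMIs. Type-2 macrophages had 5 of 9 members past 2-fold between the libraries (15.6% of genes), with *Fabp4*, *Fabp5*, *Trem2* and *Plin2* higher (10.7%) and *Cd36* lower (4.82%). *Plin2* was at 2.03 there, and at 1.32 for the mean CPM of cells. None of the 5 was called after thinning. In classical monocytes, 3 of 8 members were past 2-fold (16.4% of genes), *Abca1* and *Fabp5* higher (10.2%) and *Cd36* lower (6.2%). None of these was called after thinning to 1000 or 500 UMIs.

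In cDC1, 3 of 5 members were past 2-fold (14.8% of genes), *Apoe* and *Abcg1* higher (8.13%) and *Cd36* lower (6.63%). In cDC2, 3 of 5 were (12.4%), *Apoe* and *Fabp5* higher (8.35%) and *Lpl* lower (4.08%). After thinning to 1000 UMIs, 1 member was called in cDC1 and none in cDC2, and thinning leaves fewer members with 50 UMIs. T cells had 2 of 4 (26.6%), *Apoe* and *Fabp5*, both higher (20.6%), and none lower (5.98%). In B cells *Apoe* was the 1 member compared and was within 2-fold (1.86), while 4.92% of genes were past it (2.14% higher, 2.78% lower). Without cells holding UMIs of other lineages, the *Apoe* ratio of B cells was 57.4, over 1 steady-state UMI. The count of members called in B cells also went from 0 to 1 in other settings. These were thinning to 500 UMIs, the mean CPM of cells, leaving out the cell with most UMIs and taking off the lymphocyte CPM. The differences of *Apoe* and *Fabp5* in lymphocytes cannot be told apart from free RNA.

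Genes that work beside the members were read from 8 lists. These were fixed before the files were opened, with earlier results of these data known. The genes named here were chosen after their values were seen. Of 12 genes of cholesterol export and its receptor LXR, 4 were past 2-fold in macrophages, all higher on AngII like *Abcg1* itself. *Nr1h3*, which encodes an LXR, had a ratio of 5.57, *Scd2* 6.86 and *Arl4c* 3.70, and *Apoc1* 15.2 (2.65 to 607) over 1 steady-state UMI. Of 16 genes of fatty acid uptake and oxidation, *Acsl3* alone was past 2-fold (0.430). Over all genes compared, 14% were past 2-fold, 7.29% higher and 6.76% lower, so this list, with *Cd36* apart, is near the share of all genes.

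Of 16 genes of lipid-associated macrophages, 6 were higher on AngII beside *Trem2*, *Gpnmb* and *Fabp5*. They are *Spp1* (72.1, a marker of the reparative gate), *Syngr1* (16.1), *Cd9* (4.59), *Csf1* (3.43), *Ctsl* and *Ctsd* (2.63). Of 10 genes of lipid droplets, *Dgat2* (3.06) and *Soat1* (2.15) were higher, while *Plin2* was within 2-fold. Of 13 lysosomal genes, *Gla* (2.68) and *Gm2a* (2.21) were higher, and of 9 scavenger receptors, *Olr1* (4.94, over 2 steady-state UMIs). Cholesterol synthesis had 1 of 18 genes past 2-fold, *Sc5d* (0.348). Among these 7 lipid lists, those closest to *Abcg1* and to *Trem2* thus differed most, with median log2 ratios of 0.66 and 0.82.

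The last of the lists holds genes of dissociation stress. Of 11 compared, 7 were lower on AngII (6.76% of all genes) and none higher, with a median log2 ratio of −1.17. *Hspa1a* was at 0.227 and *Jun* at 0.271. The part of this difference in the members' ratios was not tested.

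Contents of other tissue in macrophages bear on *Fabp4*, *Cd36* and *Lpl*, which fat and endothelial cells also make. Steady-state and AngII macrophages held 2.82 and 7.002 CPM of 4 adipocyte markers together, and 14.6 and 4.43 CPM of 5 endothelial markers, in cells sorted for CD45.

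To see which genes share the members' pattern, 5095 genes were correlated with each member over 16 class and library groups of at least 20 cells. *Trem2* ran closest to *Itgb5* (r 0.989), *Msr1* (0.977) and *Ctsl* (0.974), and *Lpl* to *Rab3il1* (0.971) and *Lrp1* (0.952). *Plin2* ran with *Tgfbi* (0.951), *Apoe* with *Atp13a2* (0.9425) and *Lgmn* (0.931), and *Fabp5* with *Myl12a* (0.915). *Cd36* ran with *Gas7* (0.884), and *Abca1* with *BC005537* (0.875) and *Blvrb* (0.869). *Fabp4* (*Gng5*, 0.810), *Abcg1* (*Isg15*, 0.736, and *Sod2*, 0.705) and *Gpnmb* (*Nus1*, 0.702) had weaker partners. *Msr1* is a scavenger receptor and *Ctsl* a lysosomal protease. Each partner is among the 3 best of 5095 genes, and how high such values would be without a shared pattern was not tested.

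Among the members, *Lpl* and *Trem2* (0.9055), *Apoe* and *Trem2* (0.868) and *Trem2* and *Plin2* (0.842) had the closest patterns. *Abcg1* and *Cd36* (−0.19) and *Cd36* and *Fabp5* (−0.17) were the pairs with a negative value. The groups are few and share lineages, so these values describe patterns over classes.

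On the mouse genome (build GRCm38, GENCODE M21), *Fabp5* (3:10012548-10016607, plus strand) and *Fabp4* (3:10204088-10208576, minus strand) lie on the same chromosome with 187480 bases between them. Their levels differed by class. On AngII, *Fabp5* led in migratory dendritic cells and *Fabp4* in reparative macrophages, whose lead over mast cells was within counting error. At steady state, *Fabp5* ranked first in type-2 macrophages among classes with at least 10 cells, without a difference from the next class. *Fabp4* stood higher in the 9 nonclassical monocytes of that library than in its macrophage classes with at least 10 cells.

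Promoters were read as the 250 bases before the transcript start, from the RefSeq table of build GRCm38.p6, for the 6 of 10 members matched in it. *Abcg1*, *Lpl*, *Fabp4* and *Fabp5* were not among them. The motifs were chosen for transcription factors of lipid genes and macrophages and were sought on both strands. They are AGGTCA, the half-site of nuclear receptors (4607 of all 32851 windows), TGANTCA, wider than the AP-1 consensus (6.75%), and CANGTG, a part of the E-boxes CANNTG (39.5%). Other E-boxes were not counted. The windows of *Trem2*, *Cd36* and *Gpnmb* are printed, as *Cd36* fell and *Trem2* and *Gpnmb* rose. They are *Trem2* chr17:48346151-48346400 (plus strand), *Cd36* chr5:17835897-17836146 (minus strand) and *Gpnmb* chr6:49036268-49036517 (plus strand), with matches in capitals.
Trem2: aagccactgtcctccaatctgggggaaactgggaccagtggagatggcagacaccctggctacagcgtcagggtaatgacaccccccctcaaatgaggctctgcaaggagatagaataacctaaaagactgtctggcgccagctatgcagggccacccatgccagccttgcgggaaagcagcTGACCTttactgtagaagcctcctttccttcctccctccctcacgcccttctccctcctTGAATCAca
Cd36: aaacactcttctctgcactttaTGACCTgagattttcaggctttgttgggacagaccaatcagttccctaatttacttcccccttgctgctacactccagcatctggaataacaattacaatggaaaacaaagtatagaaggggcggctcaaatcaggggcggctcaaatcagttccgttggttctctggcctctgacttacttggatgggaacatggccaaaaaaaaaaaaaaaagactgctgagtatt
Gpnmb: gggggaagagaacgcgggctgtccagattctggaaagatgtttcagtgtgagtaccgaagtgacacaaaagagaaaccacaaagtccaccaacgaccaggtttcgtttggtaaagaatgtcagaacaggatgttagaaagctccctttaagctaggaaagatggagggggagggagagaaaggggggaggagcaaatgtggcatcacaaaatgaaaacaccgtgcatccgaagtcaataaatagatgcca

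The *Trem2* window holds a half-site on the reverse strand, printed as TGACCT, and TGAATCA next to the start, which is not the AP-1 consensus. The *Cd36* window also holds the reverse half-site, and it lies inside the *Cd36* gene model without overlapping an exon. The bases read after its start were not found in a GENCODE transcript of *Cd36*, while those of *Trem2* and *Gpnmb* were found in theirs. This window may thus not be the promoter of the *Cd36* transcripts counted here. The *Gpnmb* window holds none of the 3 patterns as sought. *Plin2* has a reverse half-site, *Abca1* holds CACGTG and 1 of 3 *Apoe* starts CAGGTG. A match of letters shows no binding and was not linked to the levels of any member.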

How the data were processed

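UMI counts per gene and barcode, deposited by the authors after bcl2fastq per the labels (no version given, while the paper's methods name Je for demultiplexing) and Cell Ranger 3.1.0 with GENCODE M24 and the eYFP sequence, were used, and CPM and ratios were computed from them. The cell filter kept barcodes with 300 to 6500 genes whose mitochondrial UMIs did not exceed 5%. A cell was assigned to 1 of 10 lineages when that lineage's markers had at least 2 UMIs and over 50% of all lineage-marker UMIs. Macrophages were assigned to 1 of 4 subsets likewise, over the subset markers. Lineage and subset markers together are 110 genes. From 1 *Yfp* UMI a cell counts as *Yfp*+. Ungated cells numbered 7 and 796. Doublets were left in, and 254 and 2293 gated cells had at least 2 UMIs of other lineages. The libraries share 0 barcodes. The members and gene lists were chosen with earlier results of these data known. Genes outside the members and markers were named after their values were seen. Ratios carry exact conditional intervals and shares Clopper-Pearson intervals. All intervals cover counting error only. Gene positions are from GENCODE M21. Python 3.11.15, NumPy 2.4.6, SciPy 1.17.1 and Matplotlib 3.10.9 were used. Some alternatives were chosen after seeing the data.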

Additional observations from a re-analysis of the deposited data

Results flagged for a closer look

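*Cd36* had opposite directions between *Yfp*+ and *Yfp*− resident macrophages in the 2 libraries, with a ratio of 0.841 at steady state and 1.90 on AngII. Both ratios are within 2-fold, and the difference was not tested. Without cells holding UMIs of other lineages, the steady-state ratio of *Cd36* was 4.86, the direction of AngII, over 5 UMIs in 8 *Yfp*− cells. *Abcg1* stood below lymphocytes in steady-state macrophages (0.343) and above them on AngII (1.54), and the difference was not tested. *Lpl* reached 1505 CPM (1291 to 1744) in the 7 ungated steady-state cells, above its highest gated class, type-2 macrophages at 1170 CPM. Of its 176 UMIs there, 144 lay in 1 cell, and the difference was not tested.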

How the results depend on the processing

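Of 119 counts of members past 2-fold, recomputed over 7 comparisons, 90 stayed within 1.5 times and 29 moved. These counts are of members called under a setting, which are not always the same members. No paired analysis was possible because each condition has 1 library. For AngII against steady state, thinning to 500 UMIs left 3 of 6 members. For resident against other macrophages at steady state, 5 became 2 after thinning to 1000 or 500 UMIs and without cells holding UMIs of other lineages, 1 of them kept from the 5 in each, and 3 after thinning to 2000. On AngII, 2 became 1 after thinning to 1000, for the mean CPM of cells and without the top cell, and 0 after thinning to 500. The 1 after thinning to 1000 is *Abca1*, not called in the main setting, and without cells holding UMIs of other lineages there were 2 again, neither of them kept. For macrophages against lymphocytes at steady state, 8 became 2 after thinning to 1000 or 500, 5 after 2000 and 3 without cells holding other lineages. For *Yfp*+ against *Yfp*− resident cells at steady state, 1 became 0 with a gate share of 80%, after each thinning, for the mean CPM and without the top cell, and 2 without cells holding other lineages, neither of them the first. On AngII, 2 became 0 after each thinning and for the mean CPM, 4 with at least 1000 genes, and 1 without the filter, with a gate from 1 UMI, with a minimum of 200 UMIs and without cells holding other lineages, where the 1 is a different member. Thinning leaves fewer members with 50 UMIs. The cause of the other moves was not tested. Among members past 2-fold in the main setting, directions reversed for *Abca1* in resident against other macrophages at steady state (0.329, with 1 other macrophage left), *Gpnmb* in AngII macrophages against lymphocytes (0.765), *Lpl* in *Yfp*+ against *Yfp*− cells at steady state (0.760 and 0.986), *Fabp5* in the same comparison on AngII (1.46) and *Cd36* in *Yfp*− cells between the libraries (1.04). Members within 2-fold also turned and passed it, among them *Lpl* between the libraries (9.68), and between *Yfp*+ and *Yfp*− cells *Cd36* at steady state (4.86) and *Fabp4* (0.475 and 0.4955) and *Lpl* (0.2995) on AngII.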
